A study of Homo sapiens with 6 samples.

Results

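The repeats described here are simple repeats, that is, tandem arrays of a short unit, whose unit has 5 or more bases and is made of A and T alone. They were chosen by name: of 15641 entries in the count table, 389 carry such a unit in brackets followed by n. The reads come from chromatin-associated RNA of H9, an established line of human embryonic stem cells, with 3 libraries labelled naive and 3 labelled primed. The naive cells were kept in RSeT, a commercial medium for a naive-like state; the labels give all 6 libraries that same growth protocol, so the primed state rests on the treatment label while the medium of the primed cells could not be read from the sources. No genotype change, transgene or added agent is named for either group, all cells are of a single line, and whether the replicates were grown separately is not stated. The p-values therefore cover the spread among these 6 libraries alone, and part or all of it may be technical. The table holds repeats and no genes, so gene markers of the naive and primed states were not checked. As a check at the level of repeats, HERVK-int was used, a retroviral RNA known from naive cells. It stood at 10797 ± 4606 CPM for naive and at 877 ± 97.4 CPM for primed cells (SD, n = 3 each). CPM are counts scaled to library totals adjusted by TMM factors, which are described below.

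Simple repeats, also called microsatellites, change in length when DNA polymerase slips. Units made of A and T are often found where the poly(A) tail of an Alu or L1 retrotransposon has decayed, and many lie in introns, so that reads over them can belong to the unspliced RNA of the gene around them. Such RNA is plentiful in a chromatin fraction. The unit in an entry's name can start at any of its bases: (TTTTA)n and (ATTTT)n are rotations of the same unit, and (TAAAA)n is the same unit read from the other strand. Each name is a separate entry of the count table. The genomic positions behind the names were not analysed, so rotations of a unit may stand for different places in the genome.

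The entries on which the results turn are printed as 3 tandem copies of the unit in the entry's name, 5′ to 3′, with the first full copy of the unit shared by all rotations in capitals. The most abundant unit of 5 bases is shown in 3 rotations and in its A-rich reverse complement, to make plain that different names can describe the same repeated unit.
Array of the (TTTTA)n entry: ttttATTTTatttta
Array of the (ATTTT)n entry: ATTTTattttatttt
Array of the (TTTAT)n entry: tttATTTTattttat
Array of the (AATAA)n entry: aatAAAATaaaataa
Array of the (AAAAT)n entry: AAAATaaaataaaat
The 5 entries that passed the test are shown next, each followed by rotations of the same unit. In the first of these, (ATAATTA)n, the shared unit starts at the last base of the first copy.
Array of the (ATAATTA)n entry: ataattAATAATTaataatta
Array of the (ATTAATA)n entry: attAATAATTaataattaata
Array of the (AATTAAT)n entry: aattAATAATTaataattaat
Array of the (TATTTTA)n entry: tattttATATTTTatatttta
Array of the (TTTTATA)n entry: ttttATATTTTatattttata
Array of the (ATATTTT)n entry: ATATTTTatattttatatttt
Array of the (TATATTA)n entry: tatattATATATTatatatta
Array of the (ATATTAT)n entry: atattATATATTatatattat
Array of the (ATATATT)n entry: ATATATTatatattatatatt
Array of the (ATTAATT)n entry: attAATTATTaattattaatt
Array of the (AATTATT)n entry: AATTATTaattattaattatt
Array of the (ATTATA)n entry: attatAATTATaattata
Array of the (AATTAT)n entry: AATTATaattataattat
Array of the (TTATAA)n entry: ttatAATTATaattataa
The unit of (ATTAATT)n is the reverse complement of that of (AATTAAT)n, so the first and the fourth of these groups are both strands of 1 array type.

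Total counts ran from 7192242 to 17791046 in 5 of the libraries, while primed replicate 2 held 118793. In that library 3 counts, the limit that a count of 0 allows, correspond to 16.8 CPM, which is above the level of most members. Alpha satellite took 25.3% to 42.9% of the counts for naive and 0.221% to 0.625% for primed cells, and ribosomal RNA took 17.7% in primed replicate 1 against 0.169% to 8.01% in the others. CPM values are scaled with TMM factors, which offset such differences in make-up. Each value sums over all copies of a repeat and is not divided by their length, so levels of different entries also follow how much of the genome carries the name.

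Of the 389 members, 126 had no count in any library and 234 were too low to test. The 155 tested members held 98.1% of the counts of all members, with 65 to 2869 counts each over the 6 libraries and a median of 309. The table names 31 of the 32 possible A/T units of 5 bases, 63 of 64 of 6 bases and 124 of 128 of 7 bases, and of these 29, 51 and 72 were tested. Units of 8, 9 and 10 bases gave 127, 22 and 22 entries with 1 tested member each, and 107 of them had no count. Units of 5, 6 and 7 bases thus held 33.6%, 36.7% and 28.7% of the counts.

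The members together held 0.146%, 0.0942% and 0.106% of all counts across naive replicates 1 to 3 and 0.188%, 0.222% and 0.179% across primed replicates 1 to 3. The groups did not overlap on this measure, with means of 0.115% ± 0.0271 for naive and 0.197% ± 0.0226 for primed cells (SD, n = 3). The value of primed replicate 2 rests on 264 counts and has a 95% Wilson interval of 0.197% to 0.251%, which covers counting error only. Alpha satellite moved with this difference. With alpha satellite and ribosomal RNA taken out of the total, the shares were 0.213%, 0.183% and 0.162% for naive and 0.229%, 0.233% and 0.196% for primed cells, and there the groups overlapped, since naive replicate 1 lay above primed replicate 3. In a bulk fraction a change in the number of cells carrying an RNA and a change in its amount per cell cannot be told apart.

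**Figure D1:**
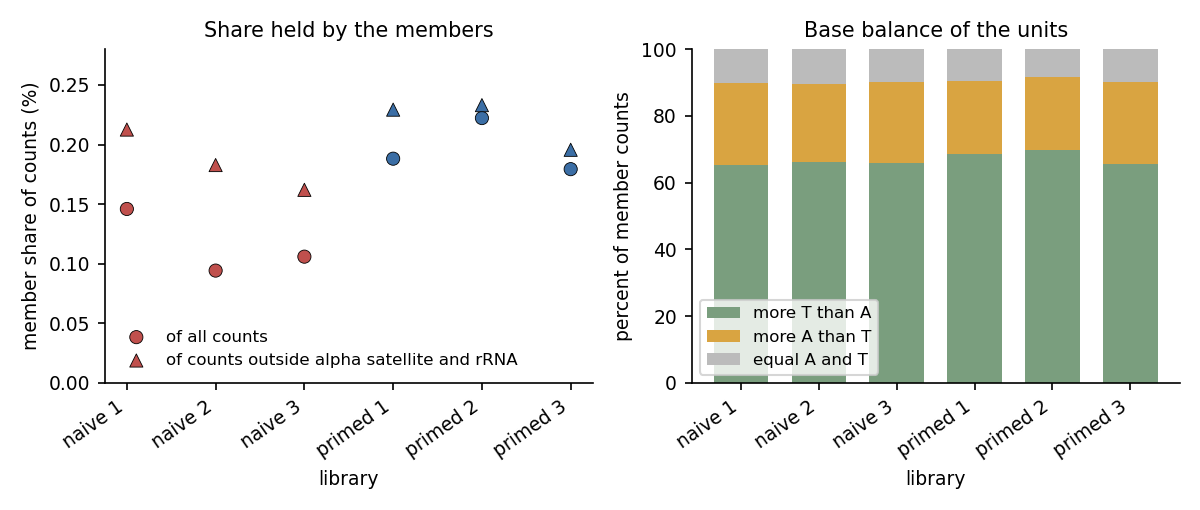
Left, the percent of counts held by the members in each library (x axis), of all counts (circles) and of counts outside alpha satellite and ribosomal RNA (triangles), naive in red and primed in blue. Right, the percent of member counts in units with more T than A, more A than T, or equal numbers; naive libraries sit lower on the left by the first measure, and the T-rich part holds 65.2% to 69.7% in all 6 libraries on the right.

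Most members did not pass the test between the naive and the primed state. Of 155 tested, 3 were higher in naive cells, 2 were lower and 150 did not pass (edgeR quasi-likelihood test, Benjamini-Hochberg adjusted over all 3219 entries tested, threshold 0.05). Over all entries tested 4.94% were called higher and 7.77% lower, 12.7% in all, against 1.94% and 1.29% of the members. The median log2 change of the tested members was 0.02, with quartiles at -0.30 and 0.30, and that of all entries was -0.0046. In all, 142 of 155 members lay within 1 log2 unit of 0, and the median standard error of a member's log2 change was 0.34. The split of calls moved with the scaling: 2 higher and 3 lower with upper-quartile factors, where 3.23% of all entries were called higher and 10.7% lower, and 1 higher and 28 lower with library size alone, where 0.87% were called higher and 32.6% lower. With library size alone the median over all entries was -0.61 and that of the members -0.58. Without primed replicate 1, 0 of 162 tested members were called by edgeR, where 8 had an unadjusted p under 0.05. In that fit 0.432% of all entries were called, and its primed group was replicate 3 with the shallow replicate 2. Without primed replicate 2, 6 of 165 tested members were called, among them the same 5, against 14.6% of all entries.

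**Figure D2:**
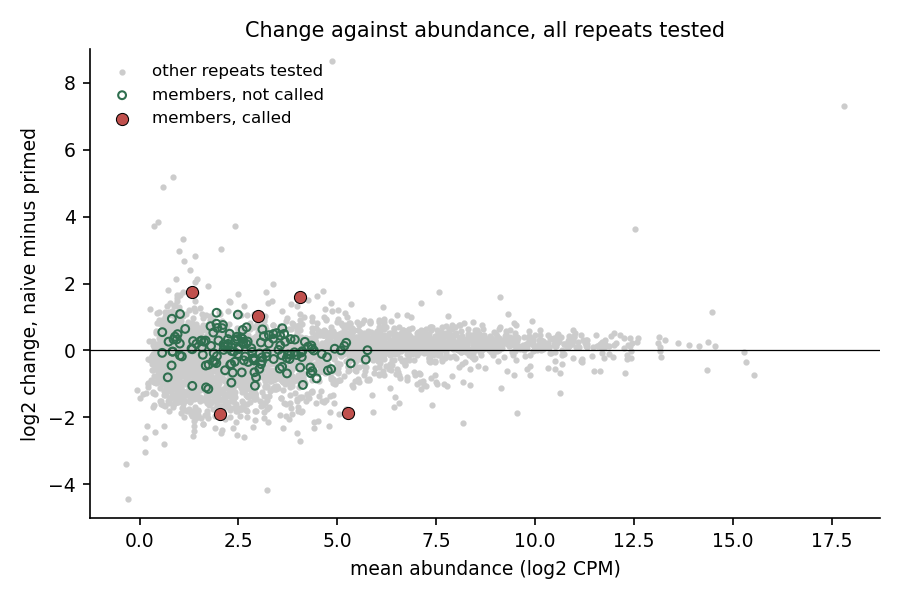
Each point is a tested repeat, with its mean abundance in log2 CPM on the x axis and its log2 change, naive minus primed, on the y axis; members are green circles, or red where called. The members lie between -1.89 and 1.73 on the log2 scale, inside the range of the other repeats, with 3 called points above 0 and 2 below.

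The (TATTTTA)n entry was the most abundant of the 5 called members and was lower in naive cells. It had 221, 188 and 169 counts across naive replicates 1 to 3 and 735, 13 and 363 across primed replicates 1 to 3. On the normalised scale these are 25.1, 16.8 and 11.9 CPM for naive and 93.0, 72.7 and 36.2 CPM for primed cells. Every primed library was above every naive one, and primed replicate 3 was the lowest of the primed. Its log2 change was -1.88 ± 0.36 (SE; edgeR adjusted p = 0.0133), a level 3.67-fold higher in primed cells. It was the only member with at least 10 counts in primed replicate 2. The array of this unit holds TATAAA on the other strand, the letters of the TATA box. Without primed replicate 1 the change was -1.28 (edgeR adjusted p = 0.157), and in each of the other 5 fits with 1 library left out it was called.

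The other 6 rotations of this unit did not share that difference. Together they had 34.9, 36.7 and 28.8 CPM for naive and 33.1, 39.2 and 30.8 CPM for primed cells, which overlap almost fully, with means of 33.5 ± 4.10 and 34.4 ± 4.32 (SD, n = 3). Their log2 changes ran from -0.25 to 0.54, with 4 above 0. The (TATTTTA)n entry held 49.8% of the counts of all 7 rotations, and when all simple repeats of the table were summed over rotations the class gave -1.01 ± 0.26 (log2, SE; edgeR adjusted p = 0.0445). Its exact reverse complement (TAAAATA)n had 0 counts in all 6 libraries.

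The (ATAATTA)n entry was also lower in naive cells, at a low level. It had 22, 21 and 19 counts for naive and 60, 1 and 65 across primed replicates 1 to 3, or 2.50, 1.88 and 1.33 CPM against 7.59, 5.59 and 6.47 CPM. The groups did not overlap, although the primed replicate 2 value is a single count. The log2 change was -1.89 ± 0.36 (SE; edgeR adjusted p = 0.0133), the most negative among the members. Without primed replicate 1 it was -1.78 and no longer passed (edgeR adjusted p = 0.105). The other rotations of its unit stood at 25.8 ± 7.63 CPM for naive and 19.7 ± 7.35 CPM for primed cells (SD, n = 3). There primed replicate 2 gave 11.2 CPM on 2 counts, and primed replicates 1 and 3 gave 24.0 and 23.8 CPM. The 3 tested among these rotations gave -0.66, 0.50 and 0.76 on the log2 scale. Summed, the class gave -0.17 (edgeR adjusted p = 0.683). Its exact reverse complement (TAATTAT)n gave 0.49 ± 0.45 (SE; edgeR adjusted p = 0.489).

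The (TATATTA)n entry was higher in naive cells. It had 121, 378 and 298 counts for naive and 56, 0 and 88 across primed replicates 1 to 3, which are 13.8, 33.9 and 20.9 CPM against 7.08, 0 and 8.76 CPM. Naive replicate 2 was the highest. All naive values were above the 2 deep primed libraries, but the count of 0 in primed replicate 2 allows up to 16.8 CPM and so does not separate it from naive replicate 1. The log2 change was 1.58 ± 0.38 (SE; edgeR adjusted p = 0.0266), or 2.996-fold. The call was lost without naive replicate 2 (1.23, edgeR adjusted p = 0.0647) and without primed replicate 1 (1.47, 0.184). The other 6 rotations summed to 29.1, 31.9 and 27.4 CPM for naive and 23.8, 11.2 and 24.5 CPM for primed cells. Of these the primed replicate 2 value of 11.2 CPM rests on 2 counts. Among these 6 rotations 5 had log2 changes above 0. The whole class gave 0.72 ± 0.23 when summed (log2, SE; edgeR adjusted p = 0.0740). The exact reverse complement (TAATATA)n gave 1.09 ± 0.42 (SE; edgeR adjusted p = 0.109), with 20, 27 and 30 counts for naive and 11, 0 and 8 for primed cells.

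The (ATTAATT)n entry had the largest positive change among the members. Its counts were 33, 38 and 33 for naive and 7, 0 and 10 across primed replicates 1 to 3, or 3.75, 3.41 and 2.32 CPM against 0.886, 0 and 0.996 CPM. Both deep primed libraries were below all naive ones, and primed replicate 2 carries no information at this level. The log2 change was 1.73 ± 0.44 (SE; edgeR adjusted p = 0.0300), or 3.33-fold. It missed the threshold without naive replicate 2 (1.70, edgeR adjusted p = 0.0745), primed replicate 1 (1.67, 0.234) or primed replicate 3 (1.85, 0.0763), and with library size alone (1.16, 0.103). In CPM the other 6 rotations of its unit had 11.6, 8.78 and 7.37 for naive and 7.46, 16.8 and 7.97 for primed replicates. The means were 9.25 ± 2.15 CPM and 10.7 ± 5.24 CPM (SD, n = 3). The primed replicate 2 value rests on 3 counts and sets the higher primed mean, while both deep primed values lie within the naive range. Of the 4 tested among these rotations 3 were above 0, and the summed class gave 0.40 (edgeR adjusted p = 0.369). The reverse complement (AATTAAT)n, a rotation of the lower entry (ATAATTA)n, gave 0.76 ± 0.41 (SE; edgeR adjusted p = 0.224). With both strands and all rotations added up, the class that holds both entries stood at -0.067 (edgeR adjusted p = 0.880).

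The (ATTATA)n entry passed the test by the smallest margin. It had 97, 115 and 111 counts for naive and 34, 1 and 50 across primed replicates 1 to 3, or 11.03, 10.3 and 7.79 CPM against 4.30, 5.59 and 4.98 CPM, with no overlap. The log2 change was 1.04 ± 0.30 (SE; edgeR adjusted p = 0.0454), or 2.06-fold. The call was lost without primed replicate 1 (0.94, edgeR adjusted p = 0.271), naive replicate 1 (0.97, 0.0862), naive replicate 2 (1.03, 0.135) or primed replicate 3 (1.14, 0.0836), and with RLE factors (1.01, 0.0523), upper-quartile factors (0.97, 0.0556), library size alone (0.46, 0.411), alpha satellite and ribosomal RNA removed before the fit (0.996, 0.0514) or DESeq2 (1.02, 0.189). Of the other 5 rotations 3 were above 0 and 2 below, from -0.96 to 1.13, and the summed class gave 0.02 (edgeR adjusted p = 0.960). Its exact reverse complement (TATAAT)n gave 0.12 (edgeR adjusted p = 0.822).

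**Figure D3:**
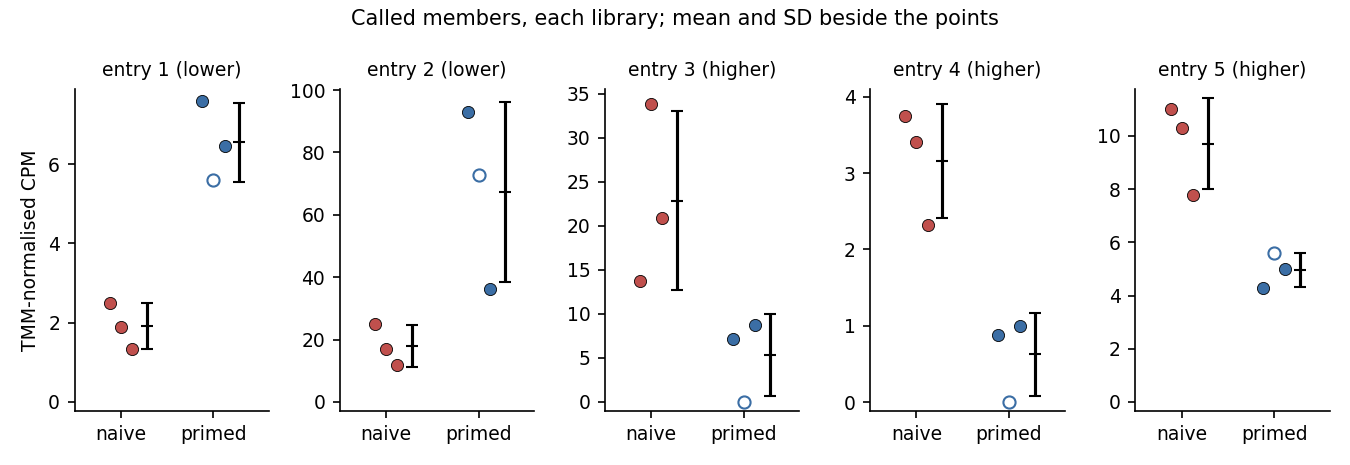
TMM-normalised CPM (y axis, a separate linear scale for each panel) of the 5 called members in each library; entry 1 is (ATAATTA)n, entry 2 is (TATTTTA)n, the third is (TATATTA)n, the fourth is (ATTAATT)n and the fifth is (ATTATA)n. Filled points are libraries, the open point is the shallow primed replicate 2, and the bar beside each group is its mean and SD (n = 3); naive points lie below the primed ones in the first and second panels and above them in the others.

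The most abundant members were rotations of the unit of 4 T and 1 A, and 0 of these passed the test. The (TTTTA)n entry, at the top with 2869 counts, had 62.2, 56.2 and 45.9 CPM for naive and 64.3, 22.4 and 52.7 CPM across primed replicates 1 to 3. The (ATTTT)n entry had 55.8, 47.6 and 41.6 CPM for naive and 71.0, 44.8 and 49.2 CPM for primed cells. The groups overlapped for both, and the log2 changes were 0.0075 ± 0.22 and -0.27 ± 0.19 (SE; edgeR adjusted p = 0.987 and 0.371). With library size alone the (ATTTT)n entry was called lower (-0.85, edgeR adjusted p = 0.0129). Of the other rotations, (TTTAT)n gave 0.23, while (TTATT)n gave 0.14 and the (TATTT)n entry 0.0031 (edgeR adjusted p = 0.472, 0.632 and 0.994). Summed, these 5 rotations stood at -0.01 ± 0.16 (log2, SE; edgeR adjusted p = 0.975). Arrays of this unit hold AATAAA, the polyadenylation signal, when read from the other strand.

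The A-rich counterpart had fewer counts in every library. The (AATAA)n entry led it with 38.6, 39.0 and 29.3 CPM for naive and 50.1, 50.3 and 41.9 CPM across primed replicates 1 to 3. All naive values were below all primed ones, although the primed replicate 2 value rests on 9 counts. The change of -0.39 ± 0.18 (log2, SE) did not pass (edgeR adjusted p = 0.172). It did when libraries were scaled by size alone (-1.01, edgeR adjusted p = 0.00423). Of the exact reverse complements of the T-rich rotations, (AAAAT)n gave -0.10 and (TAAAA)n gave -0.23, the (ATAAA)n entry stood at -0.18 and the (AAATA)n entry at 0.46 (edgeR adjusted p = 0.737, 0.600, 0.723 and 0.362).

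Among the abundant 6-base members, (ATATTT)n lay close to 0 and a pair of others had negative log2 changes without passing. The (ATATTT)n entry, whose array holds ATTTA, the core letters of AU-rich elements in unstable messenger RNAs, had 30.3, 32.4 and 30.0 CPM for naive and 32.4, 22.4 and 28.6 CPM across primed replicates 1 to 3 (log2 0.05 ± 0.18, SE; edgeR adjusted p = 0.866). The (AATTTT)n entry, which holds TTAAAA on the other strand, had 27.9, 26.5 and 17.2 CPM against 38.3, 44.8 and 29.6 CPM, without overlap (log2 -0.56 ± 0.24, SE; edgeR adjusted p = 0.135). Its primed replicate 2 value of 44.8 CPM rests on 8 counts. TTAAAA is the complement of the sequence at which the L1 endonuclease nicks DNA. The (TTTATA)n entry had 27.8, 21.4 and 17.4 CPM against 40.4, 33.6 and 26.7 CPM, with naive replicate 1 above primed replicate 3 (log2 -0.60 ± 0.24, SE; edgeR adjusted p = 0.119). Both passed with library size alone, at -1.18 each (edgeR adjusted p = 0.00171 and 0.00187), and (TTTATA)n also without naive replicate 1 (-0.76, edgeR adjusted p = 0.0477). Their exact reverse complements (AAAATT)n and (TATAAA)n had at most 9 and 2 counts in any library and were not tested, and neither was (AAATAT)n, that of (ATATTT)n, with at most 3. The longest tested unit, in (TATATATATT)n, gave 0.28 ± 0.39 (log2, SE; edgeR adjusted p = 0.655) on 27, 25 and 32 counts for naive and 15, 0 and 23 for primed cells.

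T-rich names held most of the member counts. Units with more T than A make up 199 of the 389 members, those with more A than T 130, and 60 have equal numbers. T-rich units held 65.2%, 66.2% and 65.9% of member counts across naive replicates 1 to 3 against 68.5%, 69.7% and 65.6% across primed replicates 1 to 3, where the value of primed replicate 2 has a 95% Wilson interval of 63.9% to 74.9%. The groups overlapped, with means of 65.8% ± 0.530 and 67.9% ± 2.12 (SD, n = 3). For comparison, (T)n held 58.9% ± 0.582 of the sum of (A)n and (T)n for naive and 57.7% ± 0.648 for primed cells. No source used here states the strand setting of the counting, so a T-rich name cannot be read as a T-rich transcript.

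The excess of T-rich counts differed between units. Among 19 pairs of a T-rich class of rotations and its reverse-complement class with at least 100 counts, the T-rich class held more counts in 15. ATTTT rotations held 71.6% of their pair, and between 70.1% and 72.6% in each of the 5 deep libraries. The share was 92.2% for ATTTTT rotations against AAAAAT rotations and 96.8% for AATTTTT rotations. Units of the same composition lay far apart. Of units with 3 T and 2 A, AATTT rotations held 74.8% of their pair and ATATT rotations 48.8%. Of units with 4 T and 3 A, AATTTAT rotations held 90.9% and AATTATT rotations 27.97%. Among these 19 pairs the largest movement over the 5 deep libraries was in the pair of ATATATT and AATATAT rotations, whose T-rich share was 39.98%, 54.98% and 49.4% for naive and 31.7%, 25% and 33.8% across primed replicates 1 to 3. The primed replicate 2 value rests on 2 counts of ATATATT and 6 of AATATAT rotations. This pair contains the higher entry (TATATTA)n, which held 39.6% of the ATATATT counts, so the movement is not separate from that call.

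Rotations of the same unit often had different signs. The 389 names reduce to 100 classes of rotations on a given strand, 32 of which had at least 2 tested entries. In 28 of these 32 some entries lay above 0 and some below, and the median distance between the highest and the lowest log2 change within a class was 0.93. For scale, 80 of the 155 tested members lay above 0 and 75 below, and the median standard error of a log2 change was 0.34. Mixed signs within a class can thus arise from that error, and whether rotations differ beyond it was not tested. Rotations were also far from equally used: (AATTAA)n held 82.9% of the counts of its 6 rotations, whereas in the ATTTT class the shares were even, with (TTTTA)n at 25.6% of 5 rotations. When all simple repeats of the table were summed over rotations, 44 member classes were tested, 0 were called higher and 1 lower by edgeR, and 5 had an unadjusted p under 0.05. Over all entries in that fit 3.86% were called higher and 6.18% lower. The only such class was that of (TATTTTA)n.

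**Figure D4:**
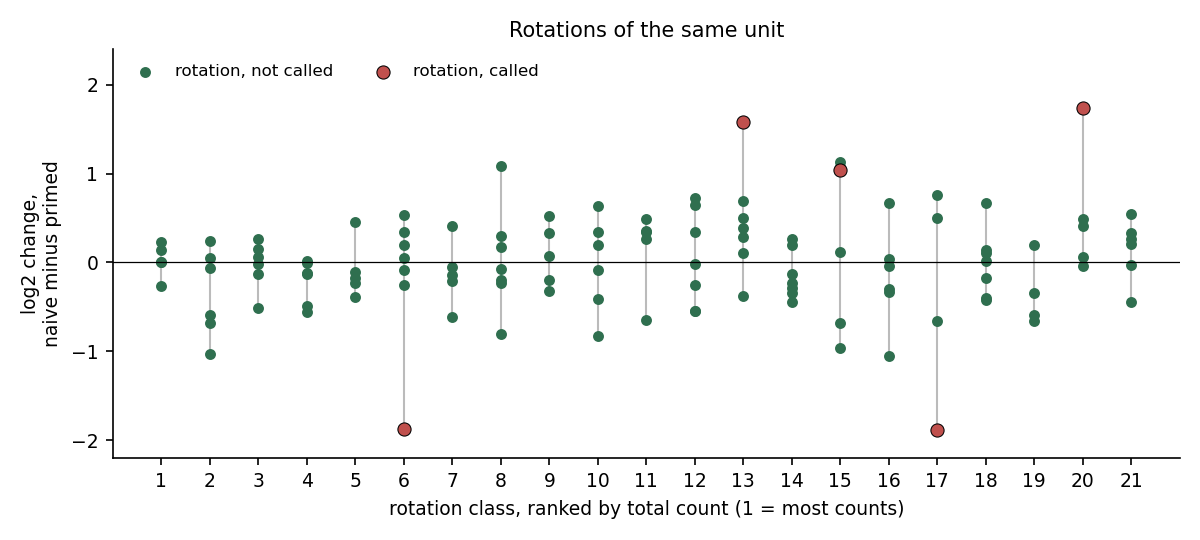
Log2 change, naive minus primed (y axis), of each tested rotation in the 21 classes with at least 4 tested rotations, ranked on the x axis by total count; grey lines join the rotations of a class and red points are called. Most classes cross 0, and the called entries sit at the ends of their classes in ranks 6, 13, 17 and 20. In rank 15 entries that were not called, at 1.07 and 1.13, lie beyond the called one.

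Units without runs of a base had a higher median log2 change than units with runs, as a description. In the 54 tested members whose longest run of A or of T has at most 2 bases, counted across the joint between copies, 36 were above 0 and the median log2 change was 0.24. Members with a longest run of 3, of 4 and of 5 or more bases numbered 43, 29 and 29, with medians of -0.05, -0.10 and -0.03 and with 20, 12 and 12 above 0. Of the 5 called members 4 have runs of at most 2 bases, 3 higher and 1 lower. This difference moved with primed replicate 1: without it the medians were 0.11, 0.02, -0.08 and -0.0056. With library size alone all 4 medians were below 0, at -0.36, -0.62, -0.69 and -0.66.

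Members with a searched motif had a lower median log2 change than members without it, for each of the 4 motifs, as a description with no test. Each was looked for on both strands of 4 tandem copies of the unit, where AATAAA can overlap TATAAA and ATTTA. Each motif holds a run of at least 3 equal bases. The 54 tested members with runs of at most 2 bases therefore fall in every group without a motif. The medians with and without a motif are thus not separate from those by run length. The letters AATAAA occur in 89 members (22.9%), ATTTA in 147 (37.8%), TATAAA in 84 (21.6%) and TTAAAA in 65 (16.7%), against 1.13%, 3.16%, 1.12% and 0.895% of all 13968 entries with a unit of 5 or more bases. The motifs are made of A and T alone, like the units by the rule, so these higher shares follow from how members were chosen. The 13968 entries also include the members. Among tested members the median log2 change was -0.03 for the 35 with AATAAA and 0.04 for the 120 without. It was -0.06 for the 46 with ATTTA and 0.05 for the other 109, and -0.05 for the 26 with TATAAA and 0.02 for the other 129. Of the 18 with TTAAAA 6 lay above 0, with a median of -0.13 against 0.05 for the other 137. Of the 5 called members (TATTTTA)n alone holds any of these motifs, TATAAA, while the other 4 have runs too short to hold one. Over the 155 tested members the A content of the unit and the log2 change had a Pearson correlation of 0.11 and a Spearman correlation of 0.14, and the log2 of the total count and the log2 change of -0.17 and -0.20. These points share their libraries, and rotations share their unit.

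Next to other simple repeats, the median of the members lay near that of the short A/T units and above those of longer units with G or C. The 27 tested A/T units of 1 to 4 bases had a median log2 change of 0.02, with 0 called higher and 1 lower. The 844 tested longer units with a GC content above 0 and up to 50% had a median of -0.16, with 2.49% called higher and 8.41% lower. Their quartiles of -0.75 and 0.28 overlap those of the members, -0.30 and 0.30. In the 677 tested longer units above 50% GC the median was -0.71, with quartiles at -1.21 and -0.28, and 0.443% were called higher and 18.6% lower. These are descriptions of entries that share the same 6 libraries, and no test of a difference between them was made.

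**Figure D5:**
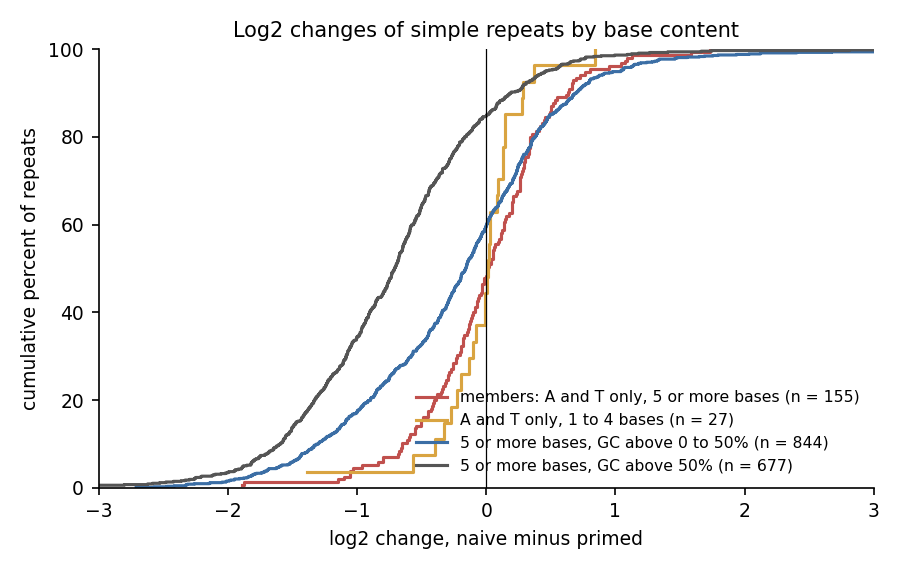
Cumulative percent of tested repeats (y axis) below a given log2 change, naive minus primed (x axis, shown from -3 to 3), for the members and 3 other kinds of simple repeat. The curve of the 155 members crosses 50% near 0, as does that of the 27 short A/T units, and the curve of the 677 units with more than 50% GC crosses it at -0.71.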

How the data were processed

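Per the submitters' processing notes, the tools were Trimmomatic 0.39, STAR 2.7.8a, featureCounts and Subread 2.14.2; no build, repeat annotation, strand setting or rule for multi-mapping reads is stated in the sources used here. The deposited values are raw counts per repeat name and library, whole numbers summed over all copies. Columns were matched to samples by title and groups taken from the treatment label.

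The whole table was tested in R 4.3.3 with edgeR 4.0.16 (filterByExpr by group, TMM factors, glmQLFit and glmQLFTest of naive minus primed, Benjamini-Hochberg, threshold 0.05). Standard errors were obtained as the log2 change over the square root of F. The procedure was tested on simulated counts. Alternatives were other scaling factors, DESeq2 1.42.0, other filters, removal of alpha satellite and ribosomal RNA, the replicate number as a block, summing of rotations and strands, and each library left out. Where a group was left with 2 libraries, the spread was pooled over all libraries.

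Members, groups of units and tests were chosen with earlier results of these data known. Entries named with values are those past the threshold, the 10 highest by mean CPM, their reverse complements, the largest change each way, the longest tested unit and the most abundant holder of each motif. Rotations named beside them and the run-length groups were chosen after the table was seen. Sequences are copies of the units in the deposited names. Figures were drawn with matplotlib 3.10.9.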

Additional observations from a re-analysis of the deposited data

How the results depend on the processing

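The number of members called was small under each setting but library size alone, and which were called varied. Against 3 higher and 2 lower members, library size alone gave 1 and 28 with a median of -0.58, DESeq2 1 and 2 among the 112 members it gave an adjusted p (over all entries 4.55% higher and 5.46% lower), no filter 5 and 7 of 263 (2.59% and 5.86%), the sum over rotations 0 and 1, and the sum over rotations and strands 0 and 1 (3.32% and 6.45%) with a median of -0.22. Over the 6 fits with 1 library left out, the calls ranged from 0 to 3 higher and from 0 to 10 lower and the median from -0.01 to 0.12; 0 were higher without naive replicate 2 (1.58% of all entries) or primed replicate 1 (0.23%), 0 were lower without primed replicate 1 (0.202%), 10 were lower without naive replicate 1 (11.8%), and 1 was higher and 6 lower without primed replicate 3 (3.64% and 8.89%). In the sum over rotations and strands the classes of 2 called members had the opposite sign to the member. The class of (ATTAATT)n, which also holds the lower entry (ATAATTA)n, stood at -0.067 and that of (ATTATA)n at -0.021. The naive minus primed difference in the members' share of counts, -0.0812 percentage points, was -0.0335 outside alpha satellite and ribosomal RNA, and between -0.0965 and -0.0684 with 1 library left out. Of 284 values of the 18 uncalled named members under alternatives, 7 were called and 42 changed sign without a call. These alternatives include the sums over rotations and over strands, where a member takes the value of its whole class. Rotations of the same unit then share a value, so the count of sign changes is not of separate members alone. The labels do not state whether a naive and a primed library with the same replicate number form a pair. Same-numbered libraries had correlations of 0.15, 0.0867 and 0.0659 of their deviations, and all 6 libraries correlated best with their own number. Correlations between different numbers ran from -0.107 to -0.0033. With the replicate block 2 members were higher and 7 lower, against 8.2% and 11.6% of all entries. Under the block (ATTATA)n missed the threshold (0.98, edgeR adjusted p = 0.0519), while (AATTTT)n (-0.64, 0.0182) and (TTTATA)n (-0.59, 0.0401) were called lower. The depth of primed replicate 2, where 57 of 155 tested members had 0 counts, limits every comparison of low members. The causes of these changes were not tested.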
